A study of Mus musculus with 64 samples.

Results

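The trophectoderm is the first epithelium of the mouse embryo and the founder of the placenta. The 10 genes described here were listed by name for their part in this lineage, with no measured value in the rule, and are Cdx2, Gata3, Tead4, Eomes, Elf5, Tfap2a, Tfap2c, Krt8, Krt18 and Yap1. All 10 were found by symbol among the 23338 genes counted in each of 64 libraries. They were followed across 4 stages of C57BL/6 mice (the strain in the labels, substrain J in the study's methods) and between single eight-cell embryos. The libraries came from 12 single eight-cell embryos, 4 lines of 2i ES cells, 24 fetal livers and 24 adult livers, with equal numbers of males and females at each stage. The labels give no engineered allele and no treatment for any of them.

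Embryos were flushed at 2.5 dpc (days post-coital) after natural mating and stripped of the zona pellucida. All cells of an embryo went into a single library, so differences between its blastomeres cannot be seen. Their sex had been assigned by the study from sex-linked transcripts. The 2i ES cells are pluripotent cells kept in inhibitors of MEK (PD0325901) and GSK3 (CHIR99021) with LIF. The lines were derived from eight-cell embryos that were cultured to blastocysts, whose trophectoderm was then lysed by immunosurgery. They thus stand for the inner lineage and not for trophoblast stem cells. Livers came from late-gestation fetuses and from adults aged 15 to 20 weeks. Embryo libraries were made from PCR-amplified cDNA by a single-cell protocol and all other libraries with a stranded total RNA kit, so that an effect of stage on any embryo comparison cannot be told apart from that of the protocol.

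In the outer cells of the cleaving embryo the transcriptional coactivator YAP1, when it is not held in the cytoplasm by the Hippo kinases, enters the nucleus and binds the DNA-binding protein TEAD4. TEAD4 with YAP1 turns on Cdx2 and, in part separately, Gata3, and these factors repress the pluripotency programme. Eomes and Elf5 act later, in trophoblast stem cells. The AP-2 factors TFAP2A and TFAP2C work in trophoblast, and TFAP2C is also an early embryonic and germ line factor. Krt8 and Krt18 encode partner keratins of simple epithelia, which are made in trophectoderm and in hepatocytes alike.

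The 2 keratin genes lie side by side on chromosome 15 of GRCm38 (mm10), Krt8 at 101996698 to 102004482 on the minus strand and Krt18 at 102028180 to 102032027 on the plus strand. The space between them is 23697 bases with no annotated gene, and they are transcribed away from each other. They are shown first because they varied together in the results that follow. Cdx2, on chromosome 5 at 147300805 to 147307270 on the minus strand, is shown as the defining transcription factor of the lineage. Each line gives the 250 bases before the RefSeq transcription start (GRCm38.p6), 5′ to 3′, with matches to 4 motifs in capitals. These starts lie inside the gene spans above, which are those of GENCODE vM21, so the 3′ end of each window overlaps its gene.
Krt8, chr15:102004343-102004592, minus strand: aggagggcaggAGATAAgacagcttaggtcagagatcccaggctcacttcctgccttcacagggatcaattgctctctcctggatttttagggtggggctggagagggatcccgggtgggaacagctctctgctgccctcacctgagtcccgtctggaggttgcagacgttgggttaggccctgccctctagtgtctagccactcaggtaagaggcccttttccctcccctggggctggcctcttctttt
Krt18, chr15:102027966-102028215, plus strand: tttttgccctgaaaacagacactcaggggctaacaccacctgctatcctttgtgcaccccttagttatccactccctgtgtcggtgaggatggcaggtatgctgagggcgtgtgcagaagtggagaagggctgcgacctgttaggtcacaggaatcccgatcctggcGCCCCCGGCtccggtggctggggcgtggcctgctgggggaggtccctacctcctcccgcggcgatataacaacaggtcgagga
Cdx2, chr5:147307250-147307499, minus strand: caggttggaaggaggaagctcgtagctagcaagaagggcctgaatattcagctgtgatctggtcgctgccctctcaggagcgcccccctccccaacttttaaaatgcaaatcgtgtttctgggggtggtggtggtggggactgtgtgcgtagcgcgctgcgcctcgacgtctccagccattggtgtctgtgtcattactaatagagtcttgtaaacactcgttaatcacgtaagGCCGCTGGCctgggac

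The motifs, searched on both strands, were GGAATG for TEAD, GCCNNNGGC for AP-2, AGATAA for GATA and TTTATG for CDX. Of 32536 promoter windows of this length, 12.6% held the TEAD letters, 13.8% the AP-2 letters, 9.97% the GATA letters and 10.8% the CDX letters. The Krt8 window held a GATA match at -239 to -234, counted back from the start site. The Krt18 window held an AP-2 match at -83 to -75 and the Cdx2 window an AP-2 match at -16 to -8. The Cdx2 match lies inside the gene span given above. No letters for TEAD or CDX stood in these 3 windows. Of the other members, Gata3 held 3 AP-2 matches and Yap1 held 1 TEAD and 1 AP-2 match, while Eomes held none. Elf5 held 1 TEAD match and, before a second start site, 1 CDX match, and Tfap2a held 1 CDX match. A promoter sequence was matched for 8 of the 10 members, all but Tead4 and Tfap2c. These matches describe letters and not binding.

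Reads on genes numbered 4659656 to 7725432 per embryo, 9857929 to 10386931 per ES line, 5145371 to 8499603 per fetal liver and 1567583 to 4757610 per adult liver. Levels are given as CPM, the reads of a gene scaled to a common library size with the TMM factors of all 64 libraries. The sums of the marker genes fitted the labels. The 7 oocyte and early embryo genes summed to 2446 to 4583 CPM in embryos and 99.2 to 216 CPM in ES lines. Dppa3 and Obox6 made up most of the embryo sum (medians 2269 and 1436 CPM). Ooep went the other way, at 0 to 9.07 CPM in embryos and 46.9 to 131 CPM in ES lines. The 7 naive pluripotency genes summed to 2884 to 3687 CPM in ES lines and 307 to 1184 CPM in embryos. The 8 hepatocyte genes summed to 31010 to 41821 CPM in fetal and 51748 to 67326 CPM in adult livers. The 5 cumulus cell markers had no read in any embryo, and the 4 markers of differentiated trophoblast summed to at most 4.61 CPM at every stage. Fetal liver 14, a female, stood apart. It held 171 of the 176 Cdx2 reads of the fetal livers, and 10 of 12 intestinal epithelium genes, a list chosen after the data were seen, were higher in it than in all 23 others. Their sum was 2015 CPM against 101 to 187 CPM in the others. Fetal liver results are therefore given with and without it wherever it changes them.

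Yap1, the coactivator at the head of the programme, was read in all 64 libraries. It ranged from 117 to 228 CPM in embryos (median 180), and the 4 ES lines had 92.9, 110, 116 and 116 CPM. Fetal livers held 34.4 to 60.2 CPM (median 43.7) and adult livers 95.4 to 147 CPM (median 119). The order was thus embryo, adult liver, ES cells and fetal liver. Neighbouring stages overlapped except for ES cells and fetal liver, which were separate.

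Tead4, the DNA-binding partner, fell in steps. Embryos held 203 to 412 CPM (median 252). ES lines 1 to 4 had 20.01, 35.6, 37.8 and 33.7 CPM. Every embryo lay above every ES line, and every ES line lay above every fetal liver, where the range was 0.295 to 2.40 CPM (median 1.496). Adult livers reached 2.21 CPM, with a median of 0.460 CPM and 8 of 24 libraries without a read, and overlapped fetal livers. Tfap2c had the same shape with a sharper end. It ranged from 157 to 336 CPM in embryos (median 283) and was 91.1, 76.2, 67.1 and 61.4 CPM in ES lines 1 to 4. Only 3 reads in 24 fetal livers and 1 read in 24 adult livers fell on it.

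Cdx2 was low and patchy. Embryos 1, 7, 8 and 12 had no read, the other 8 embryos held 5 to 42 reads, and the highest level was 7.55 CPM in embryo 3. ES lines 1 to 4 had 0.506, 1.38, 1.92 and 3.14 CPM, inside the range of the embryos. Apart from fetal liver 14, at 21.6 CPM, 5 of 23 fetal livers held a single read each. No adult liver held a read, which allows up to 0.0562 CPM over the group, by 3 counts.

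Gata3 was read in 11 of 12 embryos, at 1.61 to 35.3 CPM, and not in embryo 7. The male embryos 1, 2 and 5 and the female embryo 10 made up the 4 highest. ES lines had 0.0722, 0.364, 1.08 and 1.49 CPM, all below every embryo but embryo 7. Fetal livers held 0.252 to 1.34 CPM (median 0.575), a handful of reads each, and adult livers 5 reads in all. The Gata3 locus overlaps 4930412O13Rik and 9230102O04Rik, which are also counted, so that reads shared by these genes may be missing from its count.

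Eomes ran from 1.13 to 38.3 CPM in 8 embryos and had no read in embryos 7, 8, 11 and 12, all female. ES lines 1 to 4 had 5.85, 9.46, 3.92 and 2.20 CPM, and the livers 7 reads (fetal) and 2 reads (adult) in all. Elf5 had no read in any of the 12 embryos, which allows up to 0.0365 CPM over the group by 3 counts, and 0 reads in adult livers. The embryo bound covers counting error only and not loss of transcripts before the PCR amplification. Tfap2a had 1 read in embryo 10 and none in the 11 others. Both were near the limit of detection in ES cells too. Elf5 had 3 reads in each female line and none in the male lines, and Tfap2a had 1 to 4 reads per line.

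The keratins were highest in the livers, followed by embryos and then ES cells. Krt8 in embryos ran from no read in embryos 8 and 12 to 76.9 CPM in embryo 10 (median 14.97). ES lines 1 to 4 held 12.1, 16.01, 5.38 and 3.38 CPM. Fetal livers held 103 to 252 CPM (median 154) and adult livers 248 to 450 CPM (median 352). Krt18 ranged from 1.87 to 157 CPM in embryos (median 21.8) and was 2.095, 3.93, 2.31 and 1.65 CPM in ES lines. It then ranged from 99.4 to 153 CPM in fetal livers (median 125) and from 219 to 410 CPM in adult livers (median 277). Every liver exceeded every ES line for both keratins, while embryos overlapped ES lines. Embryos 1 and 10 reached the fetal liver range of Krt18, and no embryo reached that of Krt8.

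**Figure D1:**
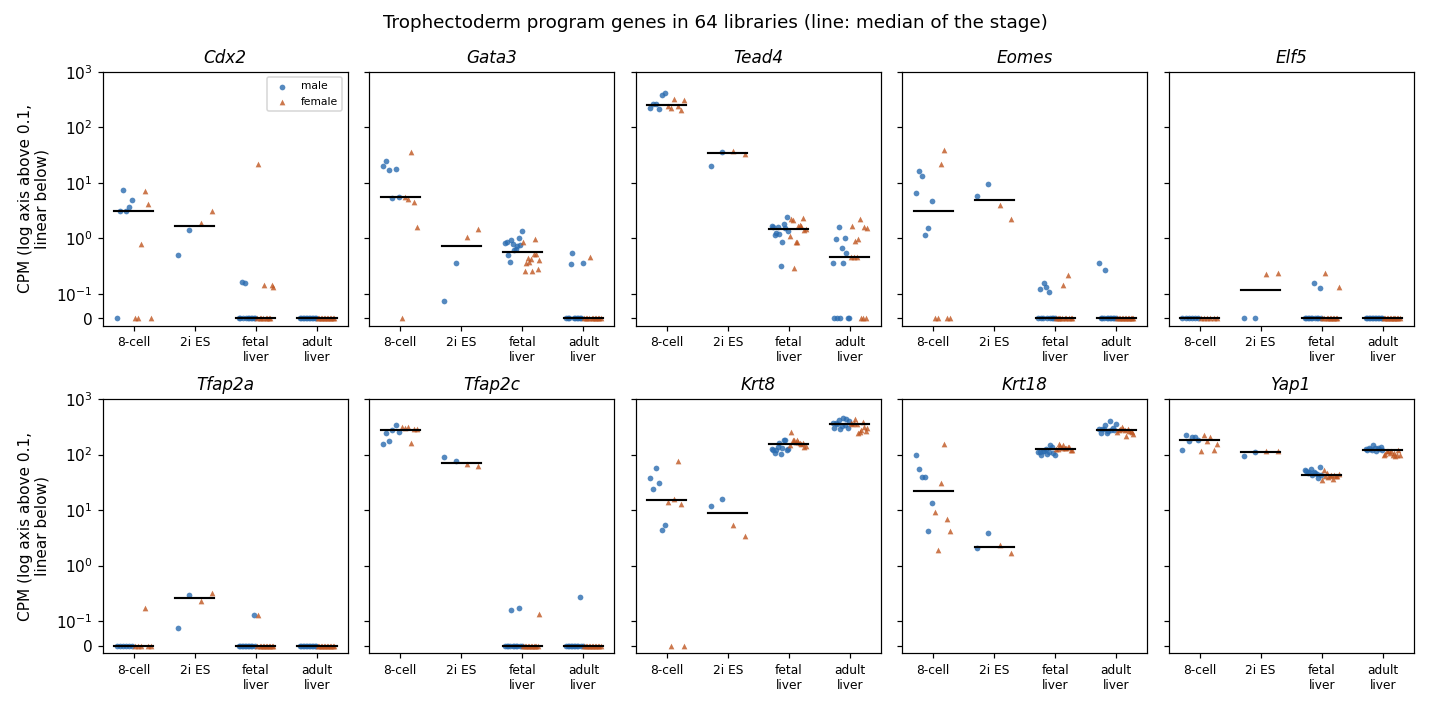
CPM of the 10 members (vertical axis, logarithmic above 0.1 and linear below) in each of 64 libraries by stage, with male samples as circles, female samples as triangles and the median of each stage as a line. Tead4 and Tfap2c stepped down from embryos to ES cells to livers, Krt8 and Krt18 were highest in livers, and 1 fetal liver stood at 21.6 CPM for Cdx2.

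Levels of different members were compared only per length, as CPM per kb of exon (GENCODE vM21). By the embryo medians, Tfap2c (76.9 CPM per kb) and Tead4 (69.9) came first, followed by Yap1 (19.5), Krt18 (15.2) and Krt8 (7.65). Cdx2 and Gata3 followed at 1.39 and 1.38 CPM per kb, and Eomes was at 0.750. In ES lines Tfap2c (19.5), Yap1 (12.2) and Tead4 (9.63) led, and Krt8 was at 4.46, Krt18 at 1.53, Eomes at 1.18, Cdx2 at 0.731 and Gata3 at 0.181 CPM per kb. In adult livers Krt18 (193) and Krt8 (180) stood far above Yap1 (12.8).

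Embryos were then compared with one another. The members fell into 2 sets by their spread, measured as edgeR's biological coefficient of variation (BCV) within sex, the variation left after counting noise. In these amplified libraries it includes variation from the protocol, which cannot be told apart from differences between embryos. Tead4, Tfap2c and Yap1 had BCVs of 0.260, 0.270 and 0.270, just under the trend of all genes of their abundance (0.284, 0.286 and 0.300). The highest embryo held 2.03, 2.14 and 1.96 times the lowest. Krt8 (1.15 against a trend of 0.616), Krt18 (0.950 against 0.486) and Eomes (1.64 against 1.05) varied far more than the trend. Gata3 (1.03 against 0.892) and Cdx2 (1.54 against 1.33) lay nearer to it. For Krt18 the highest embryo held 84.0 times the lowest. The median BCV of the 8 members kept by the filter was 0.990, beside 0.526 for all genes kept, and it ranged from 0.855 to 1.03 when single embryos were left out. Without the filter the median was 1.14 for 9 members, close to the 1.09 of all genes. No test was applied to the spread.

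**Figure D2:**
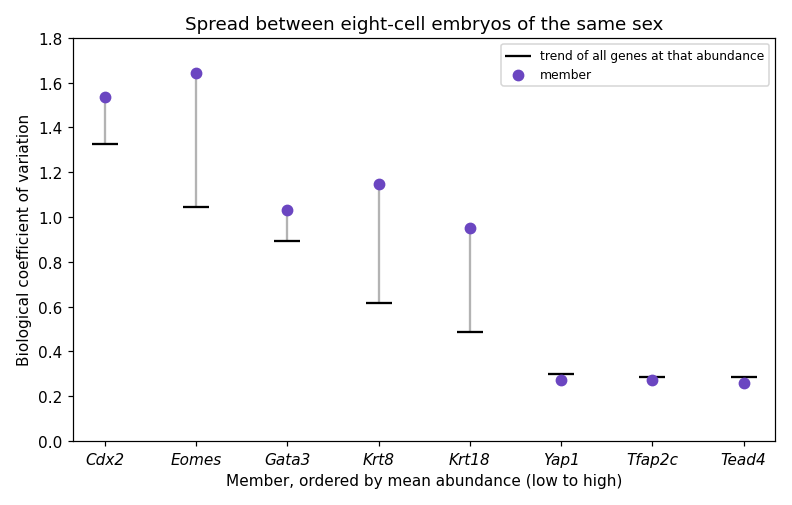
Biological coefficient of variation (vertical axis) between eight-cell embryos of the same sex for the 8 members kept by the expression filter, ordered by mean abundance. Points are members and dashes the trend of all genes at that abundance, and Krt8 (1.15 against 0.616) and Krt18 (0.950 against 0.486) lie well above their dashes while Tead4, Tfap2c and Yap1 lie just under theirs.

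The embryos were ranked for Krt8, Krt18, Gata3 and Eomes, 4 genes chosen after their values were seen. Embryo 10 had the highest level of Krt8, Krt18, Gata3 and Eomes. Embryos 1, 2 and 3 were each among the 4 highest for 3 of these 4 genes. Embryo 12 was among the 4 lowest or tied there for all 4, and embryos 8 and 11 for 3. Embryo 5 differed between these genes, with Gata3 at 17.8 CPM and Krt18 at only 4.15 CPM. Cdx2 was not ranked with them. It had no read in embryo 1, which was second in Krt18, and stood at 4.97 and 4.22 CPM in embryos 6 and 11.

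**Figure D3:**
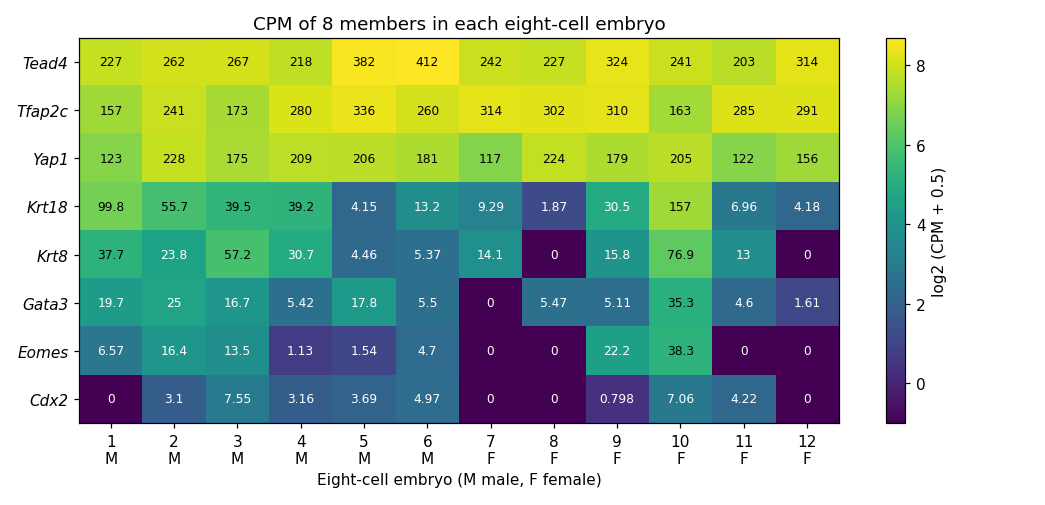
CPM of 8 members (rows) in each of the 12 eight-cell embryos (columns, M male and F female), with the colour giving log2 (CPM + 0.5). Tead4, Tfap2c and Yap1 are even across embryos, while Krt8, Krt18, Gata3 and Eomes are all highest in embryo 10 and Eomes has no read in embryos 7, 8, 11 and 12.

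Correlations across the 12 embryos were computed for the 28 pairs of 8 members on log2 (CPM + 0.5), with two-sided permutation tests of 100000 resamples. At a Benjamini-Hochberg adjusted p under 0.05 over the 28 pairs, 3 pairs passed. Krt8 and Krt18 rose and fell together (Pearson r = 0.864, permutation p = 8.0e-05, adjusted 0.00224, and Spearman rho = 0.932, permutation p = 3.0e-05, adjusted 0.000840). Without the 2 embryos farthest from the median of Krt8, r was 0.860. In the 10 embryos with a read of both it was 0.860 as well, with an adjusted permutation p of 0.0270. With each embryo left out in turn r stayed between 0.816 and 0.896, and the pair passed every time. With values centred within sex r was 0.847 (adjusted permutation p = 0.0129) and rho 0.767 (adjusted permutation p = 0.0893). Under that centring the same 3 pairs passed by r, but 0 of 28 pairs passed by rho.

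Eomes followed Krt18 (r = 0.818, permutation p = 0.00223, adjusted 0.0208, and rho = 0.779, permutation p = 0.00441, adjusted 0.0412). Without the 2 embryos farthest from the Eomes median, r was 0.778. The 4 embryos without an Eomes read form a group at the bottom of this relation. Among the 8 embryos with a read of both genes r was 0.625 (rho = 0.571), with adjusted permutation p-values of 0.341 and 0.614. Without embryo 8 the pair had an adjusted permutation p of 0.0551. Gata3 did not pass with Krt18 (r = 0.561, adjusted permutation p = 0.154, rho = 0.601, adjusted 0.151) or with Krt8 (r = 0.434, adjusted permutation p = 0.319, rho = 0.518, adjusted 0.220). Tfap2c ran against Krt18 (r = -0.784, permutation p = 0.00193, adjusted 0.0208, and rho = -0.818, permutation p = 0.00198, adjusted 0.0277), but r fell to -0.577 without the 2 embryos farthest from the Tfap2c median. Embryos 1, 3 and 10, the lowest in Tfap2c, were among the 4 highest in Krt18. Without embryo 10 only the keratin pair passed, with r = 0.844 (adjusted permutation p = 0.0112), and the pair of Eomes and Krt18 and that of Tfap2c and Krt18 both had an adjusted permutation p of 0.0889. Since the embryos came from a few litters that the labels do not give, they may not be fully independent.

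**Figure D4:**
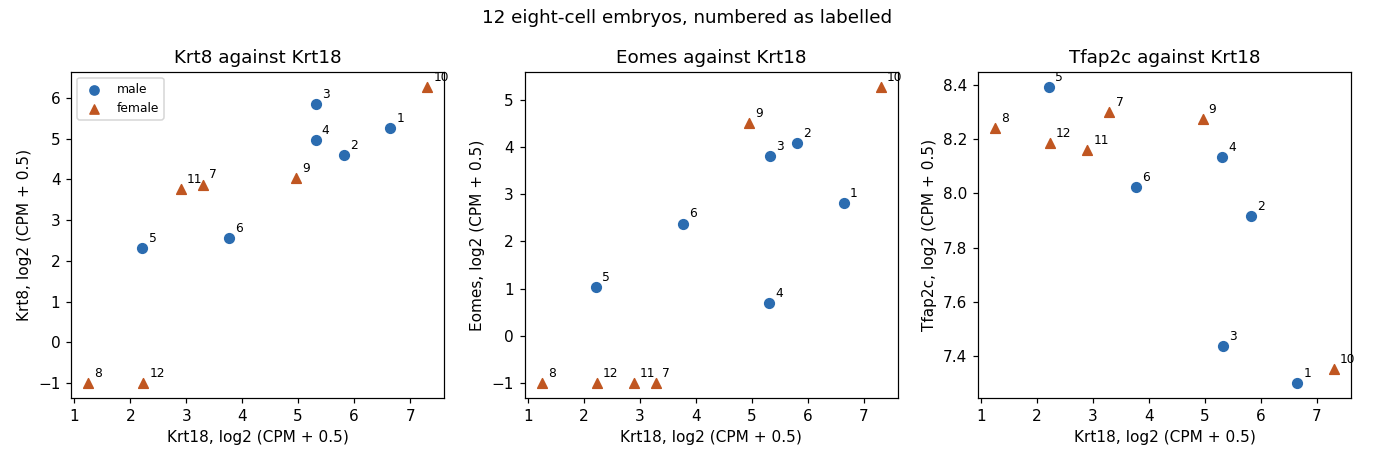
Log2 (CPM + 0.5) of Krt8, Eomes and Tfap2c (vertical axes) against Krt18 (horizontal axes) in the 12 numbered embryos, circles male and triangles female. Krt8 climbed with Krt18 (r = 0.864), Eomes did so with 4 embryos without a read at the bottom (r = 0.818), and Tfap2c declined, chiefly through embryos 1, 3 and 10 (r = -0.784).

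Yap1 and Tead4, the regulators, showed no relation that passed to any other member. Their own r was 0.268 (rho = 0.119), with adjusted permutation p-values of 0.539 and 0.833. Cdx2 passed with none either. Its largest r was 0.560, with Gata3 (permutation p = 0.0540, adjusted 0.154). Members were also set against the number of reads on genes, the number of genes with reads and the summed oocyte and early embryo genes of each embryo, and none of the 24 relations passed the permutation tests (lowest adjusted p 0.522). The nearest was Krt18 against the oocyte and early embryo sum (r = -0.583, permutation p = 0.0396, rho = -0.580).

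Likeness was searched among the 6806 genes that averaged 10 CPM or more over the embryos, as a description over 12 embryos with no test. The genes nearest to Krt8 were Spryd4 (r = 0.948), Elf2, an ETS factor (0.945), and Cttn, the actin-binding protein cortactin (0.935). Those nearest to Tead4 were the ribosomal RNA repeat row Rn45s_repeat_masker (0.870), Dedd (0.862) and Zfp42, a marker of naive pluripotent cells (0.857). Cdx2 had a read in 8 embryos, too few for this search.

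Sex was the question of the study, and in embryos no member was called different between the sexes. The rule was a Benjamini-Hochberg adjusted p under 0.1 by edgeR's quasi-likelihood test and an absolute log2 (male/female) above 0.5, which 0.264% of the 9087 genes tested met. Of the 8 members tested 0 met it, 0 reached an unadjusted p under 0.05, and DESeq2 called 0 too. The largest differences were log2 (male/female) of 0.90 (SE 1.404) for Cdx2 and 0.80 (SE 0.91) for Gata3, both smaller than their errors. All 6 male embryos but only 2 of 6 female embryos held Eomes reads, while its log2 (male/female) was -0.46 (SE 1.403), with the female embryo 10 the highest of all. The precise members were nearly even, with 0.19 (SE 0.20) for Tead4, -0.20 (SE 0.21) for Tfap2c and 0.16 (SE 0.21) for Yap1. In the same comparison 0 of 16 Hippo genes, 0 of 12 other trophoblast genes and 0 of 13 pluripotency genes tested were called.

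In ES cells 1 of 8 members tested was called, against 9.5% of all genes. Krt8 was higher in male lines, at 12.1 and 16.01 CPM against 5.38 and 3.38 CPM, with log2 (male/female) 1.68 (SE 0.29, edgeR adjusted p = 0.0360). The sexes did not overlap, but with 2 lines per sex the difference between sexes cannot be told apart from differences between lines. Without line 3 the log2 of Krt8 was 2.06 and without line 4 it was 1.38, in fits that leave 1 female line, assumed to vary like the males. With lines left out in turn 1 sex keeps a single line, so the calls of such fits are not read. Eomes was also higher in both male lines (log2 1.32, SE 0.39, adjusted p = 0.118). Gata3 (-2.51, SE 0.68, adjusted p = 0.104) and Cdx2 (-1.41, SE 0.55, adjusted p = 0.195) were lower in both male lines, without passing.

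Against embryos, the members called in ES cells were lower, while more of all genes were called higher than lower. Over all 12478 genes tested the median log2 (ES/embryo) was 0.44 with TMM and 0.82 with library totals, and 31.4% were called higher and 21.5% lower at an adjusted p under 0.05 and a change above 1 on the log2 scale. Of the 8 members tested, 0 were called higher and 4 lower. These were Tead4 (log2 -3.27, SE 0.25, edgeR adjusted p = 1.13e-08), Tfap2c (-1.96, SE 0.23, adjusted p = 1.58e-06), Krt18 (-4.11, SE 1.15, adjusted p = 0.00570) and Gata3 (-4.04, SE 1.34, adjusted p = 0.0157). The same 4 were called with library totals, at -2.88, -1.57, -3.76 and -3.68. The Gata3 call was lost without ES line 2 (adjusted p = 0.0549). Gata3 held 1 to 19 reads per ES line and passed the filter chiefly through the embryos, which favours a lower call. Yap1 passed the test but not the size threshold (-0.85, SE 0.20, adjusted p = 0.00125). Krt8 (-1.63, SE 1.17), Eomes (-0.84, SE 1.56) and Cdx2 (-0.74, SE 1.48) did not pass. The median of the members was -1.80, beside 0.44 for all genes.

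Other genes of the pathway, from lists chosen for their textbook roles, moved in both directions. Of 20 Hippo genes tested 6 were called higher and 4 lower in ES cells. The DNA-binding partner Tead2 was at 95.5 to 105 CPM in ES lines and at 0 to 25.4 CPM in embryos (log2 3.41, adjusted p = 0.00116 by edgeR). The YAP target Ctgf was at 19.9 to 43.1 CPM in ES lines and at no more than 1.51 CPM in embryos. The junctional YAP regulator Amot (log2 -3.80) and the kinase Lats2 (-2.76) were lower. Of 17 other trophoblast genes tested 5 were higher and 6 lower, with a median log2 of 1.25 beside 0.44 for all genes. The trophoblast transcription factor Hand1 was at 59.7 to 169 CPM in every embryo and at most 0.157 CPM in the ES lines, and the endocytic adaptor Dab2 at 25.9 to 226 CPM and at most 0.437 CPM. Both were thus read in all 12 embryos, unlike Cdx2, Eomes and Krt8. Klf6 and Atp1b1 of the same list went the other way. Klf6 was at 35.3 to 44.5 CPM in ES lines and at most 3.10 CPM in embryos. Atp1b1 was at 68.6 to 87.0 CPM and at most 44.9 CPM. Of 14 pluripotency genes 7 were higher, among them Nanog (5.67), and 3 lower, among them the maternal factor Dppa3 (-5.61).

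Between ES cells and fetal liver the programme split. Of 7 members tested 2 were called higher and 4 lower, beside 32.4% higher and 23.8% lower of all 14333 genes. Krt18 (log2 5.52, SE 0.16, edgeR adjusted p = 6.87e-25) and Krt8 (3.92, SE 0.29, adjusted p = 2.34e-13) rose. Tead4 fell by 4.54 on the log2 scale (SE 0.18, adjusted p = 3.41e-21) and Yap1 by 1.38 (SE 0.08, adjusted p = 3.76e-16). Eomes and Tfap2c, the other 2 called lower, had so few reads in liver that their fitted values are no bound. Both passed the expression filter only through the ES lines, so they could only be called lower. Their calls add nothing to the count beside the share of all genes. Pooled over libraries, Tfap2c had 3961 reads in ES lines and 3 in fetal livers, a ratio of 0.000224 (95% exact counting interval 4.62e-05 to 0.000656), and Eomes had 290 and 7, a ratio of 0.00715 (0.00285 to 0.0149). These intervals cover counting error only. In bulk liver, fewer expressing cells and less RNA per cell cannot be told apart.

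Cdx2 did not pass between ES cells and fetal liver (log2 -1.80, SE 1.29, edgeR adjusted p = 0.188), and the result turned on a single library. DESeq2 (log2 -5.48, adjusted p = 1.58e-13) and edgeR with the number as a replicate block (-5.25, adjusted p = 0.000319) called it lower. Fetal liver 14 was in the input of both, but neither call shows a result in spite of it. In the block fit no ES line shares its number, so it has a term of its own and does not bear on the estimate. DESeq2 at its defaults can replace an outlying count, and whether it did so here was not examined. With fetal liver 14 the pooled ratio of fetal liver to ES cells was 0.573 (0.442 to 0.746). Without it 5 reads were left against 91, a ratio of 0.0170 (0.00540 to 0.0412), and Cdx2 no longer passed the expression filter. All 6 called members were called without that library too. In the same comparison 6 of 20 Hippo genes rose and 6 fell. The other trophoblast genes split 7 to 7 of 16 tested, with Id2 (log2 4.04), an inhibitor of bHLH factors, among the risers and the water channel Aqp3 (-3.35) among the fallers. Of 14 pluripotency genes 0 rose and 13 fell.

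Only 3 members could be tested between the livers, and all of these were called higher in the adult, beside 19.5% higher and 23.6% lower of the 12875 genes tested. The log2 (adult/fetal) was 1.49 for Yap1 (SE 0.05, edgeR adjusted p = 3.60e-36), 1.30 for Krt18 (SE 0.05, adjusted p = 7.11e-31) and 1.29 for Krt8 (SE 0.07, adjusted p = 1.86e-22). The groups did not overlap for Yap1 or Krt18, and for Krt8 the highest fetal liver, number 14 at 252 CPM, just passed the lowest adult liver at 248 CPM. The size depended on the scaling. With library totals the values were 0.92, 0.73 and 0.72, below the size threshold, and 0 members were called, while the median of all genes moved from -0.05 to -0.61 and the calls over all genes from 2512 higher and 3034 lower to 1490 and 4782. Relative to that median the 3 members stood at 1.53, 1.34 and 1.34 with TMM and at 1.53, 1.34 and 1.33 with library totals. The other members had too few reads for the filter. Pooled over libraries, Tead4 had 36 reads in adult and 261 in fetal livers, a ratio of 0.465 (95% exact counting interval 0.319 to 0.661), and Gata3 had 5 and 112, a ratio of 0.151 (0.0480 to 0.362). Adult livers also had fewer erythroid reads, with 5 erythroid genes summing to 13.3 to 243 CPM against 1708 to 2733 CPM in fetal livers, and their part in the result was not tested. Of 20 Hippo genes tested 2 were called higher, the scaffold Wwc1 (1.99) and Tead3 (1.06), and 5 lower, among them Tead2 (-2.94) and Amot (-1.82). Of 11 other trophoblast genes 1 was higher and 5 lower, and of 6 pluripotency genes 1 was higher and 2 lower.

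Within the livers, sex differences of the members were small and none passed the size threshold. In fetal liver 0 of 4 members tested were called, beside 4.64% of all genes. Yap1 was 37.8 to 60.2 CPM in males (median 47.5) and 34.4 to 53.4 CPM in females (median 41.3), with log2 (male/female) 0.23 (SE 0.07, edgeR adjusted p = 0.0133). Krt18 was lower in males, at 99.4 to 151 CPM (median 112) against 120 to 153 CPM (median 134), with log2 -0.17 (SE 0.06, adjusted p = 0.0258). Krt8 was 103 to 186 CPM in males (median 127) and 134 to 252 CPM in females (median 163), with log2 -0.29 (SE 0.10, adjusted p = 0.0369), and -0.22 (SE 0.09, adjusted p = 0.0606) without fetal liver 14. The sexes overlapped for all 3. They did not overlap in the share of reads outside genes, 39.9% to 49.0% for males and 34.1% to 38.1% for females, and its part in these differences was not tested. The 5 cholangiocyte markers, which include Krt7 and Krt19, summed to 27.8 to 68.6 CPM in males and 27.1 to 324 CPM in females, or up to 134 CPM without fetal liver 14.

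In adult liver 0 of 3 members tested were called, beside 9.49% of all genes. Yap1 was 115 to 147 CPM in males (median 126) and 95.4 to 121 CPM in females (median 105), with log2 (male/female) 0.24 (SE 0.06, edgeR adjusted p = 0.00190). Krt8 (0.13, SE 0.08, adjusted p = 0.247) and Krt18 (0.12, SE 0.06, adjusted p = 0.193) did not pass. The sexes were separate in the 5 erythroid genes, which summed to 184 to 243 CPM in males and 13.3 to 50.6 CPM in females, while the 8 hepatocyte genes overlapped, at 51748 to 61971 CPM in males and 58352 to 67326 CPM in females. The part of either in these values and in the interaction that follows was not tested. The interaction of sex with stage was called for 0 of 3 members, beside 13.7% of all genes. By its adjusted p alone, the log2 (male/female) of adult minus fetal liver differed from 0 for Krt8 (0.46, SE 0.13, adjusted p = 0.00703) and Krt18 (0.34, SE 0.09, adjusted p = 0.00334), while for Yap1 it was 0.06 (SE 0.09, adjusted p = 0.680).

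**Figure D5:**
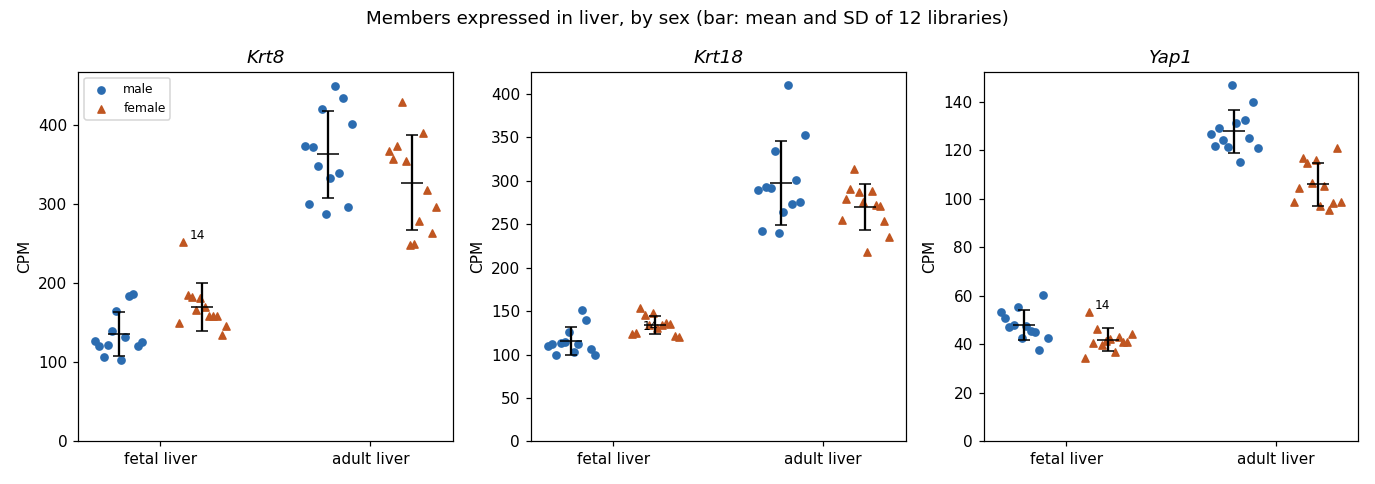
CPM of Krt8, Krt18 and Yap1 (vertical axes from 0) in 24 fetal and 24 adult livers, circles male and triangles female, with the mean and SD of each group of 12 in black and fetal liver 14 numbered. On this TMM scale adult livers lie above fetal livers for all 3 genes, except that fetal liver 14 (252 CPM) passes the lowest adult liver (248 CPM) for Krt8, and Yap1 is higher in males at both ages with overlapping groups.

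The keratin pair was followed within the livers as well, a comparison added after the data were seen. Over 6 relations, in permutation tests of 100000 resamples, Krt8 and Krt18 rose and fell together in the 24 fetal livers (r = 0.809, permutation p = 3.0e-05, adjusted 9.0e-05, and rho = 0.882, permutation p = 1.0e-05, adjusted 6.0e-05, where 1.0e-05 is the smallest p these resamples can give). Without the 2 livers farthest from the median of Krt8, r was 0.944, and without fetal liver 14 it was also 0.944. In the 24 adult livers r was 0.743 (permutation p = 1.0e-05, adjusted 6.0e-05, rho = 0.761, permutation p = 6.0e-05, adjusted 0.000180), and 0.748 without the 2 farthest livers. With each sex centred on its own mean, r was 0.715 in fetal and 0.712 in adult livers. Yap1 did not follow the keratins in adult liver (r = 0.052 with Krt8 and 0.166 with Krt18, adjusted permutation p = 0.808 and 0.529, rho = 0.037 and 0.190). In fetal liver it ran against Krt18 (r = -0.500, permutation p = 0.0129, adjusted 0.0258, rho = -0.557, permutation p = 0.00566, and r = -0.575 without the 2 farthest livers), but not within sex (r = -0.288, adjusted permutation p = 0.258). With Krt8, r of Yap1 in fetal liver was -0.300 (adjusted permutation p = 0.233, rho = -0.477, adjusted 0.0293), and without fetal liver 14 it was -0.552 (adjusted permutation p = 0.00897), while within sex it was -0.024 (adjusted permutation p = 0.910).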

How the data were processed

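Each library was a table of raw counts per gene. The authors deposited counts that HTSeq had assigned to 23338 genes, without normalization, after alignment to mm10 with TopHat2 2.0.4 and Bowtie2 2.1.0 and handling with SAMtools 0.1.18 and Picard, tools taken from the submitters' processing notes. The strand setting of the counting is not given in the sources used here, and 5 summary rows per table were left out. Duplicate reads had been removed by the authors, which can flatten high counts in amplified libraries. Samples were grouped by the labels for stage and sex. The 10 members, the gene lists and the tests were chosen with earlier results of these data known.

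Tests used edgeR 4.0.16 in R 4.3.3 (TMM, filterByExpr, robust quasi-likelihood F test, two-sided, Benjamini-Hochberg over all genes tested). The SE of a log2 fold change is its size divided by the square root of F. Sex was called at an adjusted p under 0.1 and an absolute log2 above 0.5, and stage, with sex as a covariate, at 0.05 and 1. Each comparison was fitted on its own samples. DESeq2 1.42.0 was an alternative. Correlations used Python 3.11.15, numpy 2.4.6 and scipy 1.17.1, with a pseudocount of 0.5 CPM and members of at least 10 reads in at least 6 embryos. The scripts were tested on simulated data. Before scaling, 3 reads stood for 0.289 to 1.91 CPM, depending on library depth. Named genes were all members, up to 3 genes per list and direction with the smallest adjusted p, and the 3 genes most like Tead4 and Krt8. Replicates are separate embryos, lines or animals by their labels.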

Additional observations from a re-analysis of the deposited data

Results flagged for a closer look

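Among the embryos of each sex, 16 groups of 6 values were examined for a single sample far from the others, and 2 were found. The nominal chance rate of about 1 in 20 was not computed for these data, where some members vary together. Cdx2 in the male embryo 1 had no read while the 5 other males held 3.10 to 7.55 CPM, and the gap took up 0.711 of the whole range on the log2 scale. This gap depends on the 0.5 CPM added before the log2. Tfap2c in the female embryo 10 was 163 CPM against 285 to 314 CPM in the 5 other females, a gap of 0.852 of the range. The same embryo had the highest Krt8, Krt18, Gata3 and Eomes of all 12.

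The sex difference of both keratins differed between the livers by the interaction test of edgeR. The log2 (male/female) of Krt8 was higher by 0.46 in adult than in fetal liver and that of Krt18 by 0.34, both below the size threshold of 0.5. Without fetal liver 14 the interaction was 0.40 for Krt8 (adjusted p = 0.0120) and 0.34 for Krt18 (adjusted p = 0.00278).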

How the results depend on the processing

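The counts of members called and the values reported were recomputed under each alternative, and 115 of 138 recomputed counts or medians kept within 1.5 times the reported one. DESeq2 called 2 of 10 members by sex in ES cells (Eomes and Krt8), beside 406 genes higher in males and 703 lower of 17648. In fetal liver it called 1 of 10 (Gata3), beside 577 higher and 111 lower of 19139. As lower in adult than fetal liver it called 2 of 10 (Gata3 and Tead4), beside 4452 of 19519. Without the expression filter 2 of 10 members were called by sex in ES cells, beside 450 genes higher in males and 788 lower of 17648. In fetal liver 2 of 10 were called, beside 645 higher and 412 lower of 19139. Called higher in ES cells than embryos were 2 of 10 (Elf5 and Tfap2a, at a few reads), beside 6250 of 18255. Called lower in adult liver were 3 of 10, beside 5028 of 19519. The median BCV was then 1.14, beside 1.09 for all genes. Without the size threshold 3 of 4 members were called by sex in fetal liver, beside 2287 genes higher in males and 2520 lower of 12930. In adult liver 1 of 3 was called, beside 1563 higher and 1837 lower of 10372. In the interaction 2 of 3 were called, beside 2441 higher and 1943 lower of 13026. With library totals 0 of 3 members were called higher in adult liver, beside 1490 of 12875 genes. Restricted to members with a read in every embryo, 1 pair of 6 was correlated. With ES lines left out in turn, 1 sex keeps a single line, so the calls by sex of these fits are not read. With embryos left out in turn, 1 to 5 pairs passed and the median BCV was 0.855 to 1.03. The causes of these changes were not tested.

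Single values changed sign in 7 cases, and none of these values had passed its test as reported. Tead4 by sex in fetal liver was 0.0087 without fetal liver 14, and the interaction for Yap1 was -0.030 in adult livers of at least 2000000 reads. In adult liver, r of Krt8 with Yap1 was -0.149 with library totals, -0.192 with DESeq2 size factors and -0.345 within sex, and r of Krt18 with Yap1 was -0.058 with DESeq2 size factors and -0.181 within sex.

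Stages share title numbers but not animals. Same-numbered samples hardly deviated together. The median correlation was 0.031 for 4 pairs of ES lines and embryos and -0.064 for 4 pairs of fetal livers and ES lines. For 24 pairs of livers it was -0.016. A correlation over 0.1 stood in 0, 1 (0.116) and 1 (0.101) of these pairs. With the number as a replicate block, 5 of 8 members were called lower in ES cells than embryos (Krt8 added), beside 2281 of 12478 genes. Lower in fetal liver than ES cells were 5 of 7 (Cdx2 added), beside 3477 of 14333 genes. Higher in adult liver were 3 of 3, beside 2501 of 12875 genes. In the fits with ES lines, samples without an ES line of the same number stand alone in their block and do not bear on the stage estimate. Adult livers limit detection most, since 3 reads there stood for up to 1.91 CPM before scaling.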

Other observations

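Gata3 had too few reads for the filter in the edgeR comparison of the sexes in fetal liver. It was read in all 24 fetal livers, at 0.373 to 1.34 CPM in males (median 0.781) and 0.252 to 0.986 CPM in females (median 0.411). The male livers held 67 reads and the female livers 45. Tested on genes below the filter too, its log2 (male/female) was 0.73 by DESeq2 (adjusted p = 0.0777) and 0.73 by edgeR without the filter (adjusted p = 0.0495), at a level of a few reads per library. In adult liver 4 of 24 libraries held a Gata3 read.

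The intestinal epithelium genes that set fetal liver 14 apart included the brush border genes Lct at 461 CPM against at most 2.00 CPM in the 23 others, Fabp2 at 471 against at most 4.93 CPM and Vil1 at 179 against at most 4.94 CPM. Krt8 was also highest in that library, at 252 CPM against 103 to 186 CPM in the others, while Krt18, at 125 CPM, lay inside their range of 99.4 to 153 CPM. The source of these reads was not tested.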
